A study of Mus musculus with 9 samples.

Results

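Tnfrsf12a and Tnfrsf19, a pair of receptors of the tumour necrosis factor (TNF) receptor superfamily, had opposite courses in the muscularis externa (ME) of the mouse small intestine after surgical handling. Tnfrsf12a stood 23.8-fold above control at 3 h, and Tnfrsf19 stood 4.71-fold below control at that time. The genes were picked by their group means for this contrast, so the levels and the direction of the early difference describe how they were chosen and are no test. The control mean of Tnfrsf12a is low, and its early log2 ratio of 4.57 was 2.66 with a pseudocount of 5. The pair are 2 of the 531 genes that the deposited tables list, and each was listed with 1 transcript, which makes 2 of 634 transcripts. Tnfrsf12a was found in a table of gliosis genes that the study assembled and in a table of changed genes, with the same values in both. Tnfrsf19 was found in the table of changed genes alone, so the members take 3 rows in all.

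RNA-Seq of the ME, the muscle coat of the bowel wall that holds the myenteric ganglia, covered 9 libraries from BL6 mice aged 8 to 12 weeks. The libraries fall into 3 groups of 3, namely unmanipulated controls, mice 3 h after intestinal manipulation (IM3h) and mice 24 h after it (IM24h). Intestinal manipulation (IM) is a standardized rolling of the small bowel after opening of the abdomen, used to model postoperative ileus, the loss of bowel motility that follows abdominal surgery. The source label of the controls reads sham operated, whereas the table headers call them naive, and which of these holds was not resolved here. No transgene or drug is named in the labels of any group, and they do not state that the libraries of a group are from different animals, although the study describes its groups as groups of mice.

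The values are group means of normalized read counts per transcript that the authors computed, and no value per library was used here. The depth of each library is therefore unknown, no standard deviation, interval or test can be given, and every difference below is a ratio of 2 group means whose error is not known. The tables are also selected. Each of the 502 transcripts in the table of changed genes differed by at least 2-fold in all 3 contrasts, so a gene listed there had to differ from control at both times. The 155 transcripts of the gliosis table carry no such limit. All 3 IM3h libraries have titles with library numbers from another run of numbers than those of the other 6 libraries, so what a separate handling of these libraries may have done and what IM did by 3 h cannot be told apart.

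TNF receptors are cell surface proteins that recruit TRAF adaptors or death domain proteins when their ligands bind, and many of them signal to the transcription factor NF-kB and to MAP kinases. Tnfrsf12a encodes Fn14, the receptor for the cytokine TWEAK, which is the product of Tnfsf12. Fn14 has a short cytoplasmic tail that binds TRAF proteins, lacks a death domain, and is known as a gene induced by growth factors and tissue injury. Tnfrsf19 encodes TROY, a receptor without a death domain that can take part in the Nogo receptor complex of neurons. TROY is also known as a Wnt target gene in intestinal crypt stem cells. The gut muscle coat holds glia, neurons, muscle cells, interstitial cells, fibroblasts and resident macrophages, and a bulk library sums over all of them.

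The 250 bases before the start of each gene are shown because the members differed in direction at 3 h, and the motifs in them allow the sequences to be set side by side. Both are from RefSeq on GRCm38.p6 and are written 5′ to 3′ on the strand of the gene, which is the minus strand in each case. The window of Tnfrsf12a is chr17:23677450-23677699, and that of Tnfrsf19 is chr14:61037988-61038237. Capitals mark matches to an Egr motif in Tnfrsf12a and to a TCF/LEF motif and an E-box in Tnfrsf19.
Tnfrsf12a: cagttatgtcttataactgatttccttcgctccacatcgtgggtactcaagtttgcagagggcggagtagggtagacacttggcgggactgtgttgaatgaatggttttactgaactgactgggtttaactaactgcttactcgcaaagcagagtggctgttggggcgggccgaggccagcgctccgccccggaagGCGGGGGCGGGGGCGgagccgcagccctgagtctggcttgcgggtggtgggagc
Tnfrsf19: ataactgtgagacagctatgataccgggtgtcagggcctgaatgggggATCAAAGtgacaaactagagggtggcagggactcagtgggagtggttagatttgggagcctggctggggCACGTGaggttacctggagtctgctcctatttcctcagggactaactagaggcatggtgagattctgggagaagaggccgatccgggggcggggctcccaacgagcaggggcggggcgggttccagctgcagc

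The Tnfrsf12a window had 2 overlapping matches to GCGNGGGCG, the Egr motif, which 4.70% of 32841 RefSeq windows of this length hold. The Tnfrsf19 window had 1 match to the TCF/LEF motif CTTTGAT, read on the opposite strand, which 3.21% of windows hold. It also had 1 match to the E-box CACGTG, which 6.02% hold. GC boxes, GGGCGG, were matched 5 times before Tnfrsf12a and 3 times before Tnfrsf19, and 32.7% of windows hold at least 1. The GC boxes were given no capitals of their own. Neither window held the AP-1 motif TGANTCA (6.75% of windows), the CRE TGACGTCA (1.55%), the kappaB motif, which is GGGA and TTTCC with any base between (0.356%) or TATAAA (12.4%). Both strands were searched. GC content was 58.8% before Tnfrsf12a and 59.2% before Tnfrsf19. RefSeq gives Tnfrsf19 a further start upstream, whose window held none of the 8 motifs. A match in letters is a description and not a binding site, and a window without a match says nothing of the factor.

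Tnfrsf12a, listed as NM_001161746, had a group mean of 1.52 normalized counts in control, 36.2 at IM3h and 7.26 at IM24h. IM3h was the high group, and IM24h lay between it and control. The sum over the 3 libraries of each group, taken as the libraries per group times the mean, was 4.57 in control, 109 at IM3h and 21.8 at IM24h. The control side of each ratio thus rests on a low normalized count, and the number of reads behind it is unknown. IM3h libraries held 80.5% of the counts of this transcript, IM24h libraries 16.1% and control libraries 3.38%.

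Against control, the Tnfrsf12a mean was 23.8-fold higher at IM3h (log2 ratio 4.57) and 4.77-fold higher at IM24h (log2 ratio 2.25). IM24h was 4.99-fold below IM3h, a log2 ratio of -2.32. Since the control mean is low, the IM3h log2 ratio was 3.88 with a pseudocount of 1 and 2.66 with one of 5, and the IM24h one was 0.91 with a pseudocount of 5. On the log2 scale 49.3% of the early distance from control was left at 24 h. On the linear scale, where the early difference was 34.7 normalized counts and the late one 5.74, 16.5% was left.

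Tnfrsf19, listed as NM_001164155, had the reverse order, with a group mean of 33.5 normalized counts in control, 7.13 at IM3h and 16.1 at IM24h. Control was the high group, IM3h the low one, and IM24h again lay between. The sums were 101 in control, 21.4 at IM3h and 48.4 at IM24h. Control libraries held 59.1% of the counts of this transcript, IM3h libraries 12.5% and IM24h libraries 28.4%.

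The Tnfrsf19 mean at IM3h was 21.2% of control (log2 ratio -2.23), and at IM24h it was 48.1% of control (log2 ratio -1.06). IM24h was 2.26-fold above IM3h, a log2 ratio of 1.18. The late value lay 2.08-fold below control, just inside the limit of the table of changed genes, so a slightly higher IM24h mean would have kept the gene out of it. In bulk tissue a lower mean can come from fewer cells that express Tnfrsf19 or from less of its RNA per cell, and the pair cannot be told apart here. Of the early distance from control, 47.3% was left at 24 h on the log2 scale and 65.9% on the linear scale.

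**Figure D1:**
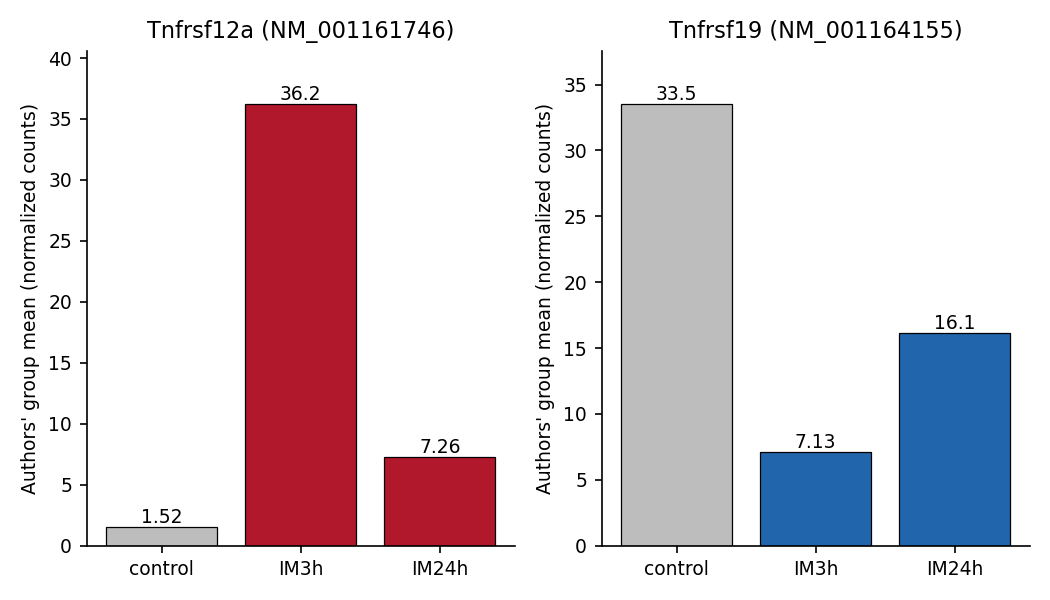
Group means of Tnfrsf12a (left) and Tnfrsf19 (right) in normalized counts as deposited, in control (grey), IM3h and IM24h (coloured); 1 bar is 1 group mean over 3 libraries, with no error bar because values per library were not used. Tnfrsf12a is highest at IM3h (36.2 against 1.52 in control), whereas Tnfrsf19 is lowest there (7.13 against 33.5 in control), and IM24h lies between control and IM3h for both.

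The log2 ratio of Tnfrsf12a exceeded that of Tnfrsf19 by 6.81 at 3 h, a 112-fold difference between the ratios, and by 3.31 at 24 h, a 9.92-fold difference. From IM3h to IM24h the ratios differed by -3.50, since Tnfrsf12a was lower and Tnfrsf19 higher at the later time. The log2 distance left at 24 h was close in size for the 2 genes, at 49.3% and 47.3%, and no test of that likeness is possible. The closeness was not seen on the linear scale, where 16.5% was left for Tnfrsf12a and 65.9% for Tnfrsf19. It was also lost when the log2 ratios were centred on the median of the gliosis table, which gave 30.7% for Tnfrsf12a and 77.1% for Tnfrsf19. The centred log2 ratios at IM24h over control were 1.28 for Tnfrsf12a and -2.03 for Tnfrsf19, with the same directions as the uncentred ones.

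Among all 531 genes, counted by the transcript with the largest total, 271 (51.0%) had an IM3h mean more than 1.5-fold above control and 222 (41.8%) had one as far below. Tnfrsf12a had the 19th highest and Tnfrsf19 the 26th lowest ratio of IM3h to control. At IM24h, 405 genes (76.3%) were more than 1.5-fold above control and 101 (19.0%) below, and here Tnfrsf12a was 150th from the top and Tnfrsf19 88th from the bottom. Between the times, 338 genes (63.7%) were more than 1.5-fold higher at IM24h than at IM3h and 153 (28.8%) lower. Tnfrsf12a had the 57th lowest ratio of IM24h to IM3h, and Tnfrsf19 stood 220th from the bottom, in the middle of the list. Because the rule used these contrasts and the tables are selected, the ranks describe places within the tables. Within the 109 genes of the gliosis table, Tnfrsf12a had the 8th highest ratio of IM3h to control, the 24th highest of IM24h to control and the 3rd lowest of IM24h to IM3h.

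**Figure D2:**
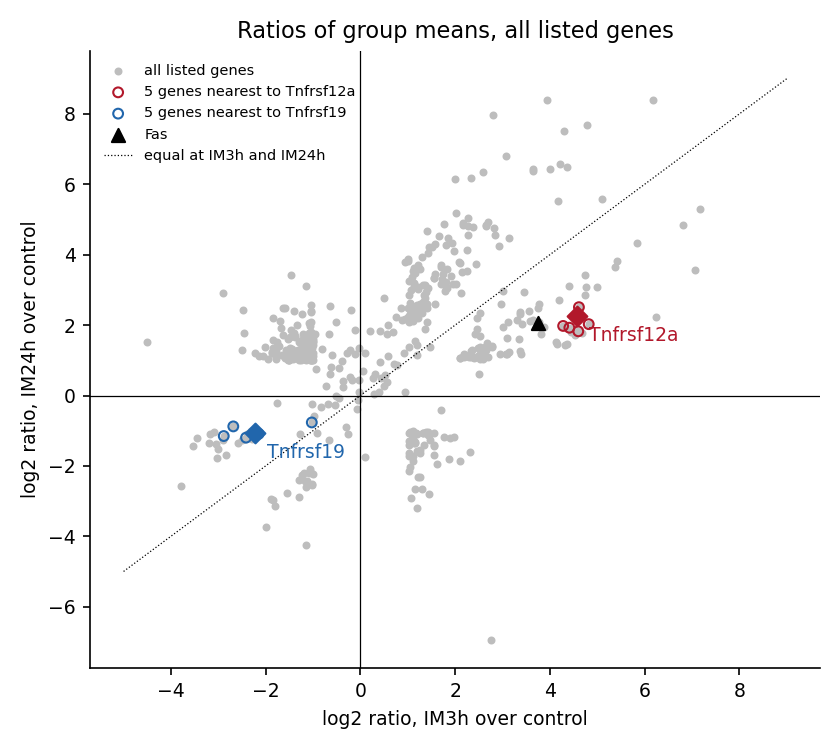
Each point is 1 of 531 genes, with the log2 ratio of IM3h to control on the x axis and the log2 ratio of IM24h to control on the y axis; the dotted line marks equal ratios at the 2 times. Tnfrsf12a (red diamond) lies at 4.57 and 2.25, below the dotted line, and Tnfrsf19 (blue diamond) at -2.23 and -1.06, above it, so each was nearer to control at 24 h. The bands around 0 hold points from the gliosis table only, because the table of changed genes has a fold limit.

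Tnfrsf12a shared its course, above control at both times and higher at IM3h, with 91 other genes (92 in all, 17.3% of the 531). By its early log2 ratio it was the 16th of these 92. The median gene of this course had 51.7% of the log2 distance left at 24 h (interquartile range 43.3 to 66.4%) and 28.1% of the linear distance (18.5 to 35.4%). On the log2 scale 35 of the 91 others had less left than Tnfrsf12a, and on the linear scale 18 had less.

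Tnfrsf19 shared its course, below control at both times and lower at IM3h, with 33 other genes (34 in all, 6.40% of the 531). It was the 21st of these 34 by the size of its early log2 ratio. The median gene of the course had 46.0% of the log2 distance left at 24 h (interquartile range 36.1 to 50.8%) and 67.5% of the linear distance (58.2 to 70.7%). On the log2 scale 18 of the 33 others had less left than Tnfrsf19, and on the linear scale 14 had less. The more frequent courses were those of 185 genes (34.8%) below control at IM3h and above it at IM24h, and of 143 genes (26.9%) above control at both times and higher at IM24h.

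Of 29 TNF receptor genes looked for, 3 were listed, and the other 26 were not analysed here. The third was Fas (NM_007987), the death domain receptor that starts apoptosis when Fas ligand binds. Its mean was 1.75 normalized counts in control, 23.4 at IM3h and 7.35 at IM24h. Fas thus had the course of Tnfrsf12a with a smaller early ratio, 3.74 on the log2 scale at 3 h and 2.07 at 24 h. None of 18 TNF superfamily ligands looked for was listed, so TWEAK itself was not analysed here.

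Among 25 receptor adaptors, kinases and caspases, 3 were listed. All 3 had IM3h means more than 1.5-fold above control, as 51.0% of all genes did. Each of the 3, like every listed gene of the lists below except the cell type markers Cd68 and Dcn, is in the table of changed genes. For genes of that table, passing 1.5-fold was set beforehand. Only the direction was free. Birc3, which encodes the ubiquitin ligase cIAP2 that binds TRAF2, had means of 3.25 in control, 32.0 at IM3h and 14.5 at IM24h, the same order as Tnfrsf12a. Cflar, an inhibitor of caspase 8, had 1.44, 3.62 and 0.543 in that order of groups, so that its IM24h mean lay below control. Ripk3, a kinase of necroptosis, had 0.332 in control, 0.991 at IM3h and 3.64 at IM24h. The normalized counts of Cflar and Ripk3 are low, and their ratios rest on these small values. The values are those of their listed transcripts, NM_001289704 for Cflar and NM_001164107 for Ripk3.

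Of 21 genes of NF-kB and its feedback, 4 were listed, and all 4 had means more than 1.5-fold above control at both times, beside 51.0% of all genes at IM3h and 76.3% at IM24h. Icam1, an adhesion molecule for leukocytes, had 2.58 normalized counts in control, 50.2 at IM3h and 10.2 at IM24h. Nfkbia, which encodes the inhibitor IkB alpha, had 126 in control, 1065 at IM3h and 286 at IM24h, and Tnip1, a partner of the NF-kB inhibitor A20, had 9.61, 49.5 and 23.5. These 3 were nearer to control at 24 h, as Tnfrsf12a was. Nfkbie, a further inhibitor, was highest at IM24h, with 0.829 in control, 1.68 at IM3h and 3.99 at IM24h.

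Of 10 genes known to be raised by TWEAK and Fn14 signalling in other cells, 5 were listed, and Icam1 and Birc3 are among them. Ccl2, a chemokine for monocytes, had 1.29 normalized counts in control, 184 at IM3h and 50.8 at IM24h, and Cxcl10, a chemokine for T cells, had 0.817, 15.0 and 5.36. Mmp9, a matrix protease stored by neutrophils, differed from the rest, with 3.03 in control, 1.42 at IM3h and 12.7 at IM24h. At IM3h 4 of the 5 were more than 1.5-fold above control, beside 51.0% of all genes, and Mmp9 was below. At IM24h all 5 were above, beside 76.3% of all genes. The median log2 ratio of the 5 was 4.19 at IM3h and 2.16 at IM24h, beside medians of 0.77 and 1.31 over all 531 genes.

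Fn14 belongs by its history to the genes that growth factors and injury induce early. Of 28 other genes of that kind, such as Fos and Egr1, 12 were listed, and all 12 were more than 1.5-fold above control at both times, beside 51.0% of all genes at IM3h and 76.3% at IM24h. From IM3h to IM24h, 11 of the 12 were lower by more than 1.5-fold, as 28.8% of all genes were, and the exception was Hmga2. The median log2 ratio of the 12 was 4.36 at IM3h and 2.13 at IM24h, which lies near the 4.57 and 2.25 of Tnfrsf12a. This list was chosen with earlier results of these data known, so the nearness is a description only. Over all pathway lists, 27 of 185 genes were listed. All 27 are in the table of changed genes, so each differed from control by at least 2-fold, and only the direction was free. The shares over all genes include genes of the gliosis table that had no such limit. Of these 27, 19 had the course of Tnfrsf12a, itself included, beside 17.3% of all genes.

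The course of Tnfrsf19 had 2 of the 27 pathway genes, Tnfrsf19 itself and Wnt5a. Wnt5a (NM_001256224), a ligand of non-canonical Wnt signalling, was the only one listed of 50 Wnt ligands, receptors, R-spondin genes and targets looked for. Its mean was 49.2 normalized counts in control, 11.1 at IM3h and 23.1 at IM24h. The log2 ratios of Wnt5a were -2.15 at IM3h and -1.09 at IM24h, beside -2.23 and -1.06 for Tnfrsf19. Of 11 genes of the Nogo receptor complex and its ligands, Rtn4, which encodes Nogo, was the only one listed. Rtn4, by its listed transcript NM_024226, had 19.1 in control, 63.3 at IM3h and 191 at IM24h. This transcript of the ligand gene was thus above control at both times while Tnfrsf19 was below. Over the 27 pathway genes, 24 were more than 1.5-fold above control and 3 below at IM3h, beside 51.0% and 41.8% of all genes. The counts at IM24h were again 24 and 3, beside 76.3% and 19.0%. Between the times 7 were higher and 20 lower at IM24h than at IM3h, beside 63.7% and 28.8%.

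**Figure D3:**
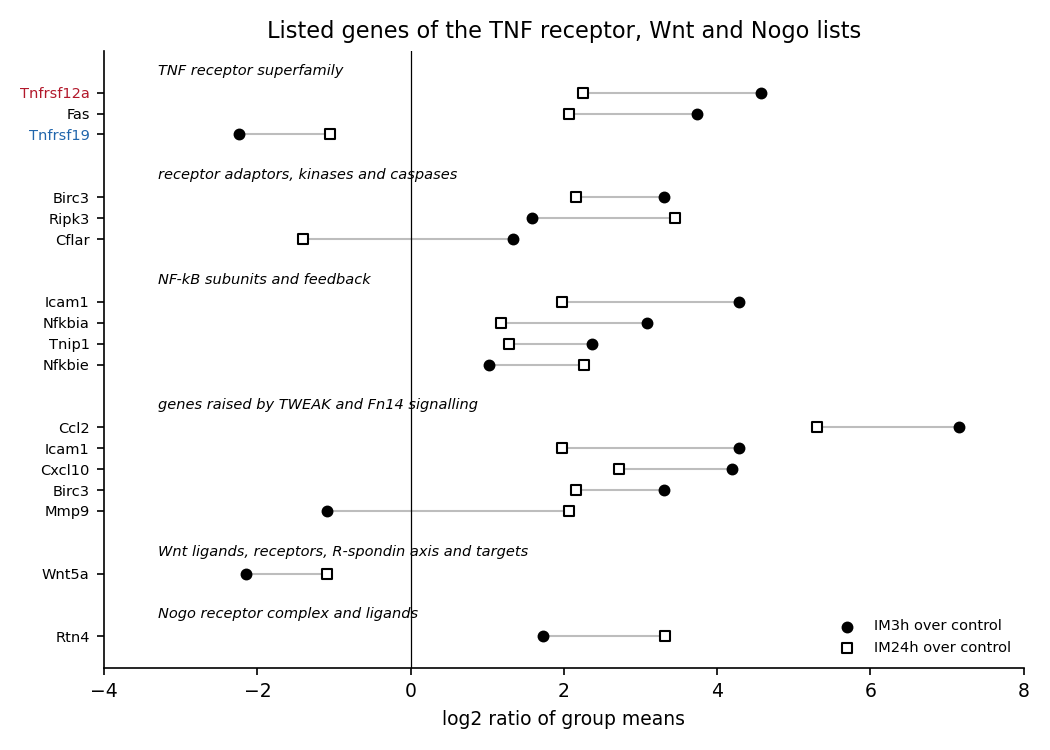
Log2 ratios to control of listed genes of the TNF receptor, adaptor, NF-kB, TWEAK, Wnt and Nogo lists, at IM3h (filled circles) and IM24h (open squares), joined by a line for each gene; Icam1 and Birc3 belong to 2 lists. Tnfrsf12a runs with most of the plotted genes at 4.57 and 2.25, whereas Tnfrsf19 (-2.23 and -1.06) and Wnt5a (-2.15 and -1.09) are the genes on the left of 0 at both times.

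The genes nearest to each member were taken by the distance between their log2 ratios at IM3h and IM24h, among the 204 other genes whose total reached 90 normalized counts, over 3 group means. The 5 nearest to Tnfrsf12a were Hspa1b (distance 0.26), Hspa1a (0.34), Errfi1 (0.36), Icam1 (0.40) and Atf3 (0.43). Hspa1a and Hspa1b encode near-identical copies of the heat shock protein HSP70, between which reads may be shared, so their separate values are uncertain. Hspa1b had means of 8.69 in control, 213 at IM3h and 49.5 at IM24h, and Hspa1a had 9.42, 266 and 38.4. Errfi1, a feedback inhibitor of the EGF receptor, had 3.76 in control, 80.1 at IM3h and 14.3 at IM24h. Atf3, a transcription factor induced by stress and nerve injury, had 1.66 in control, 40.2 at IM3h and 5.87 at IM24h. With a pseudocount of 1, 2 of these 5 were still among the nearest.

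The gene nearest to Tnfrsf19 was Wnt5a, at a distance of 0.09. Gpsm2, which orients the mitotic spindle, followed at 0.23, with means of 34.5 in control, 6.48 at IM3h and 15.1 at IM24h. C3, the central complement component, lay at 0.48 with 175 in control, 27.3 at IM3h and 95.4 at IM24h. Adrb3, the beta-3 adrenergic receptor, lay at 0.66 with 31.6, 4.27 and 14.2 in that order of groups. Dcn, last of the 5, which encodes the matrix proteoglycan decorin, was far off at 1.24, with 506 in control, 249 at IM3h and 298 at IM24h. Tnfrsf19 therefore had fewer close neighbours in these tables than Tnfrsf12a, whose 5 neighbours lay within 0.43. The likeness is measured over few means and says nothing of shared cells or control.

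**Figure D4:**
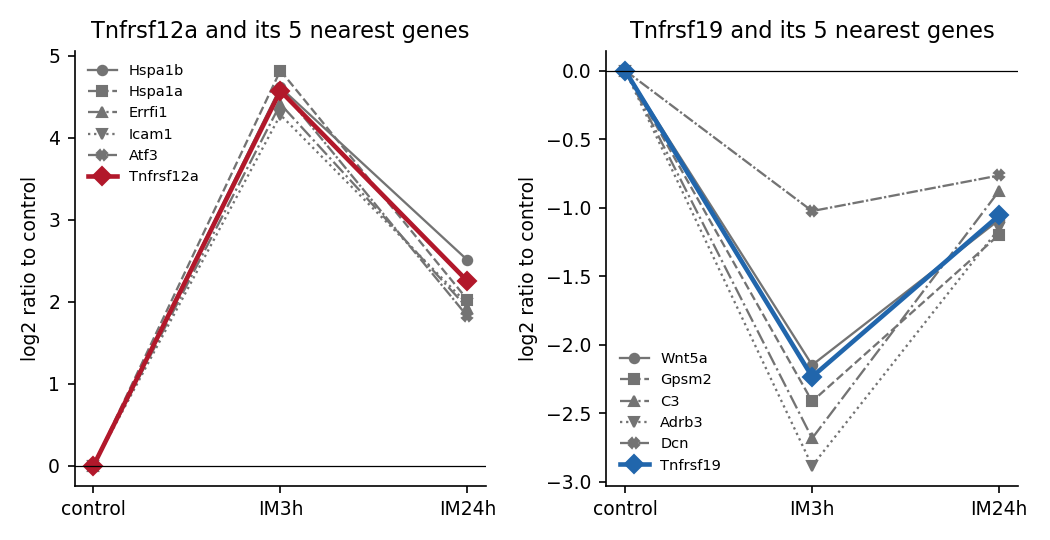
Log2 ratio of the group mean to control (y axis) in control, IM3h and IM24h (x axis) for Tnfrsf12a (left, red) and Tnfrsf19 (right, blue) and the 5 genes nearest to each (grey, told apart by marker); the y axes differ. The lines around Tnfrsf12a are close together at both times, whereas around Tnfrsf19 only Wnt5a and Gpsm2 are close, and Dcn at -1.03 and -0.77 stands apart.

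Both listed transcripts have a partner isoform in RefSeq that the tables did not list. NM_001161746 of Tnfrsf12a, on chromosome 17, has 3 exons and a coding stretch of 282 bases (94 residues with the stop codon left out), whereas NM_013749 has 4 exons and 387 coding bases (129 residues). The last exon of the listed isoform, 402 bases, lies wholly within that of its partner, and the annotated 3′ ends are 200 bases apart. For Tnfrsf19, on chromosome 14, NM_001164155 and NM_013869 have 10 exons each, code for the same 416 residues and differ in the first exon. They share 2430 bases of the last exon, which is 93.8% of that of the listed isoform, and their 3′ ends are 161 bases apart. The library kit reads the 3′ end of a transcript, so a read in the shared stretch cannot be given to 1 isoform, and the values are best read as those of the gene. In the GENCODE annotation no other gene overlapped the last exons, and 1, Gm41168 on the opposite strand, overlapped the body of Tnfrsf19.

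Of 104 cell type marker genes looked for, 18 were listed, and none of the listed markers had a group mean of 0. The summed means of the 4 of 12 neutrophil markers listed were 3.80 normalized counts in control, 17.3 at IM3h and 239 at IM24h. Those of 6 of 17 monocyte and macrophage markers were 29.4, 37.3 and 240 in the same order, so these sums were highest when Tnfrsf12a was already nearer to control. Of the glial markers, Gfap, an intermediate filament of reactive glia, had 2.79 in control, 11.3 at IM3h and 25.2 at IM24h, a course of neither member.

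Of 8 markers of PDGFRA cells and fibroblasts, Dcn was listed, and it was below control at both times, as Tnfrsf19 was. The 5 of 16 epithelial markers listed, among them the enterocyte genes Apoa1 and Fabp2, summed to 224 in control, 485 at IM3h and 63.4 at IM24h. All 5 were more than 1.5-fold above control at IM3h and below it at IM24h, a course that 9.79% of all genes and neither member had. The part of these cell types in the courses of Tnfrsf12a and Tnfrsf19 was not tested. Markers of smooth muscle (9), neurons (12), interstitial cells of Cajal (3), endothelium (5), mesothelium (6) and lymphocytes with mast cells (9) were not among the listed genes and were not analysed here, so the tissue label could not be checked against the genes that define muscle.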

How the data were processed

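Group means (LSMean) and total counts per transcript, deposited by the authors as an expression signal of normalized counts, were read from 2 of 3 tables for 9 libraries in 3 groups. Libraries were made with a QuantSeq 3′ kit. Partek is named in the submitters' processing notes, with no version. Aligner, genome build and normalization method are not given in the sources used here. Each total equalled 3 times the sum of the group means. The authors' own p-values, false discovery rates, ratios and fold changes were not used, nor was the table of gene ontology terms. Of columns with values per sample, 0 were left unmapped.

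Log2 ratios of group means were computed without a pseudocount, with 1 transcript per gene (the largest total) for counts and ranks, and a gene was counted as above or below at 1.5-fold. Without replicate values no test was fitted. The text names both members, listed genes of the TNF receptor, ligand, adaptor, NF-kB, TWEAK, Wnt and Nogo lists, markers of glia, fibroblasts and epithelium, and the 5 nearest genes to each member with a total of at least 90. Hmga2, Fos and Egr1 were named after their values were seen, and some listed genes are not reported here. The members and all lists were chosen with earlier results of these data known. Alternatives were pseudocounts of 1 and 5, centring on the median of the gliosis table, a 2-fold limit, totals of at least 90 or none, and summed transcripts. The computation was tested on simulated data. Promoter windows came from RefSeq (GRCm38.p6) and exons from GENCODE on GRCm38. Python 3.11.15, pandas 2.3.3, NumPy 2.4.6 and Matplotlib 3.10.9 were used.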

Additional observations from a re-analysis of the deposited data

How the results depend on the processing

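Since the tables hold group means, replicates were not left out in turn. No paired analysis was possible because the labels give the groups no shared replicate numbers and only group means were used. With no spread to compare against, a value was counted as moved when it differed by more than 1.5-fold from the one reported. Of 70 alternative values 60 stayed within that limit, 10 moved and none changed direction. Some of the 60 could not move. Each member was listed with 1 transcript, so summing transcripts returned the same value. Listed pathway genes had all passed 2-fold in every contrast, so the 2-fold limit could not change their counts. Among the log2 ratios of the members, 5 values moved and 19 did not. The log2 ratio of Tnfrsf12a at IM3h over control, 4.57 as reported, was 3.88 with a pseudocount of 1 and 2.66 with one of 5, and at IM24h over control it was 0.91 with a pseudocount of 5 against 2.25, since the control mean is low. Centring on the median of the gliosis table, which was 0.39 at IM3h and 0.97 at IM24h over control, gave 1.28 for Tnfrsf12a and -2.03 for Tnfrsf19 at IM24h over control, against 2.25 and -1.06. In an alternative chosen after seeing the data, the same centring left 30.7% of the early log2 distance of Tnfrsf12a and 77.1% of that of Tnfrsf19 at 24 h, so the closeness of 49.3% and 47.3% depends on the scaling. With totals of at least 90, 3 pathway genes were higher at IM24h than at IM3h, against 7. A pseudocount of 1 kept 2 of the 5 nearest genes of Tnfrsf12a, and without a minimum total 1 of the 5 of Tnfrsf19 was kept. Outside the 70 values, centring turned the log2 ratio of Dcn at IM24h over IM3h to -0.03, against 0.26, which is a change of direction.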
